A study of Arabidopsis thaliana with 8 samples.

Results

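Class III peroxidases were examined in Arabidopsis thaliana, as 60 of the 73 genes of the family, in RNA sequencing of whole plants grown with and without salt. The 60 genes are those whose identifiers were on a list of class III peroxidases and were matched to the deposited count tables of 32678 genes, and all 60 were found there and in the RefSeq annotation. The other 13 genes of the family served as a comparison. The list names members of the family, and it was drawn up with earlier results of these data known. The sources used here do not say why these 60 genes were listed. All 60 had reads in every library, while 2 of the other 13 had no reads, so the 13 are not matched in level.

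Class III peroxidases are secreted plant enzymes that carry a heme group and use hydrogen peroxide to oxidise phenolic compounds. In the cell wall they couple monolignols into lignin and phenolics into suberin, and they cross-link wall polymers, which stiffens the wall. In another reaction cycle they make hydroxyl radicals or superoxide, which can loosen the wall, and some members produce the hydrogen peroxide burst of plant defence. In roots, members are known for the lignin of the Casparian strip, the barrier in the endodermis that controls the entry of ions such as sodium, and for the growth of root hairs.

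Plants of 4 lines were compared, each at 75 mM NaCl and at 0 mM NaCl. T31-5 and T43-11 were labelled as expressing a 3F-VP16 fusion that induces salinity tolerance, where 3F-VP16 is an artificial transcription factor. The empty vector control line expressed VP16 alone, the transcription activation domain of a herpes simplex virus protein. Col-0 was the wild type and carried no transgene by its label. With 1 library of each line at each salt level, the lines took the place of replicates. In the salt tests p-values rest on how far the salt response differs between lines. In the comparisons at 75 mM they rest on the spread between lines of a group, and a group of 1 library adds none. The labels do not give the promoter of the transgenes, the age of the plants or how many plants stood behind a library, and each transgenic line may be 1 insertion event.

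The 8 libraries held 13007480 to 22820814 reads assigned to genes, and the Col-0 library at 75 mM was the smallest. Where a gene has no read, a level of 3 reads cannot be told from none, and this limit is 0.132 to 0.231 CPM, where CPM is a gene's reads scaled to a library of 1000000. CPM values below are scaled by TMM factors (trimmed mean of M values), which bring the libraries to a common level. Of the 28 pairs of libraries, 2 were much closer than the rest. The mean chi-square per gene, which is near 1 for repeat sequencing of 1 library, was 1.42 between T43-11 at 75 mM and T43-11 at 0 mM, and 1.44 between T31-5 at 0 mM and the empty vector line at 0 mM, while the next lowest value was 4.35. An added row named T43 in the tables held 711 and 606 reads in T43-11 at 75 and 0 mM, and at most 1 read in any other library. The other added row, T31, held 67 and 106 reads in T31-5 at 75 and 0 mM, 587 and 500 in T43-11, and 68 and 83 in the empty vector line, so this row did not set T31-5 apart from the empty vector line, and the sources used here do not say what the rows count. The libraries labelled T43-11 and T31-5 are named by their labels below, and results that rest on T43-11 are given with and without it. The files do not tell whether libraries were exchanged or plants pooled, and either would change which line the values named T43-11, T31-5 or empty vector describe. T31-5 and the empty vector line count as separate lines in the salt test although their 0 mM libraries are nearly equal. Summed as 1 line they left 12 members higher and 1 lower with salt, beside 1215 and 1563 of 20585 tested genes.

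The family is made of old duplicates and of recent ones. Coding lengths ran from 948 to 1119 bases, and the median identity of coding sequences between 2 members was 52.8%, with a range of 46.2 to 100%. A total of 20 members stood in 11 pairs of direct chromosomal neighbours. Reads of near copies can be split or mixed by read counting, and 11 members shared at least 1 stretch of 50 bases with another gene of the family, while the other 49 shared none. AT1G05240 and AT1G05250, neighbours on chromosome 1, had identical coding sequences, so their counts cannot be told apart beyond their untranslated ends. Of the 60 members, 58 carried the motif Phe-His-Asp-Cys, which holds the distal histidine that splits hydrogen peroxide. Only this exact string was sought, so whether the members without it lack the histidine was not checked. The coding stretch around that motif shows how close the copies are whose responses are compared below (RefSeq, TAIR10.1, 84 bases, capitals mark the 4 codons of Phe-His-Asp-Cys).

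PRXCA (AT3G49110): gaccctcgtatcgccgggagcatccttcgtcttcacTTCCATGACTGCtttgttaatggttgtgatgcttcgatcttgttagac

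PRXCB (AT3G49120): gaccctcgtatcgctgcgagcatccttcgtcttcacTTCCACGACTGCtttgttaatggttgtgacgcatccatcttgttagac

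AT3G32980: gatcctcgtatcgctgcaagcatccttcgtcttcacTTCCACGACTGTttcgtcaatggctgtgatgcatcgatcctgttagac

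AT2G38380: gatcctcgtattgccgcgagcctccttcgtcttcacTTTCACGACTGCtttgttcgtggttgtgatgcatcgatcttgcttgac

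AT2G38390: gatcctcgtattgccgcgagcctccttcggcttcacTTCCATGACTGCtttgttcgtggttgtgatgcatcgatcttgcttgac

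AT4G37520: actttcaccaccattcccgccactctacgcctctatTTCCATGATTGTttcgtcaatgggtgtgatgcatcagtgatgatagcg

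AT4G37530: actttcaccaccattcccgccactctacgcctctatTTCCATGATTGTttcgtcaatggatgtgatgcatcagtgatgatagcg

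In this stretch PRXCA and PRXCB differed at 6 of 84 bases, AT3G32980 and PRXCB at 9, AT2G38380 and AT2G38390 at 3, and AT4G37520 and AT4G37530 at 1. Over the whole coding sequence these last 2 pairs were 90.6% and 92.4% identical, and PRXCA and PRXCB were 90.4% identical.

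The level of the members spanned more than 3 orders of magnitude. Mean levels over the 8 libraries ran from 0.178 to 757 CPM with a median of 8.79 CPM. There were 4 members at 100 CPM or more and 6 under 1 CPM, and each of the 60 had at least 1 read in every library. Per kilobase of coding length the 6 highest were PRXR1 (AT4G21960) with 762 CPM per kb, AT4G37520 with 282, AT3G32980 with 216, PRXCB (AT3G49120) with 164, AT5G64120 with 94.4 and AT2G37130 with 88.4. RefSeq lists AT5G64120 also as PRX71, which is known for lignification and restricted growth when the wall is damaged, and annotates AT2G37130 with defence against fungi. These 6 genes held 63.4% of the members' summed CPM in T31-5, 65.9% in T43-11, 66.6% in the empty vector line and 67.2% in Col-0 at 75 mM, against 62.2%, 65.6%, 62.6% and 58.4% in those lines at 0 mM. Summed over the 60 members, the level was 3003 CPM in T31-5, 3140 in T43-11, 2877 in the empty vector line and 2488 in Col-0 at 75 mM, against 1948, 3083, 1989 and 1556 CPM in those lines at 0 mM. The sum was thus lowest in Col-0 at both salt levels, and T43-11 at 0 mM lay with the salted libraries.

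**Figure D1:**
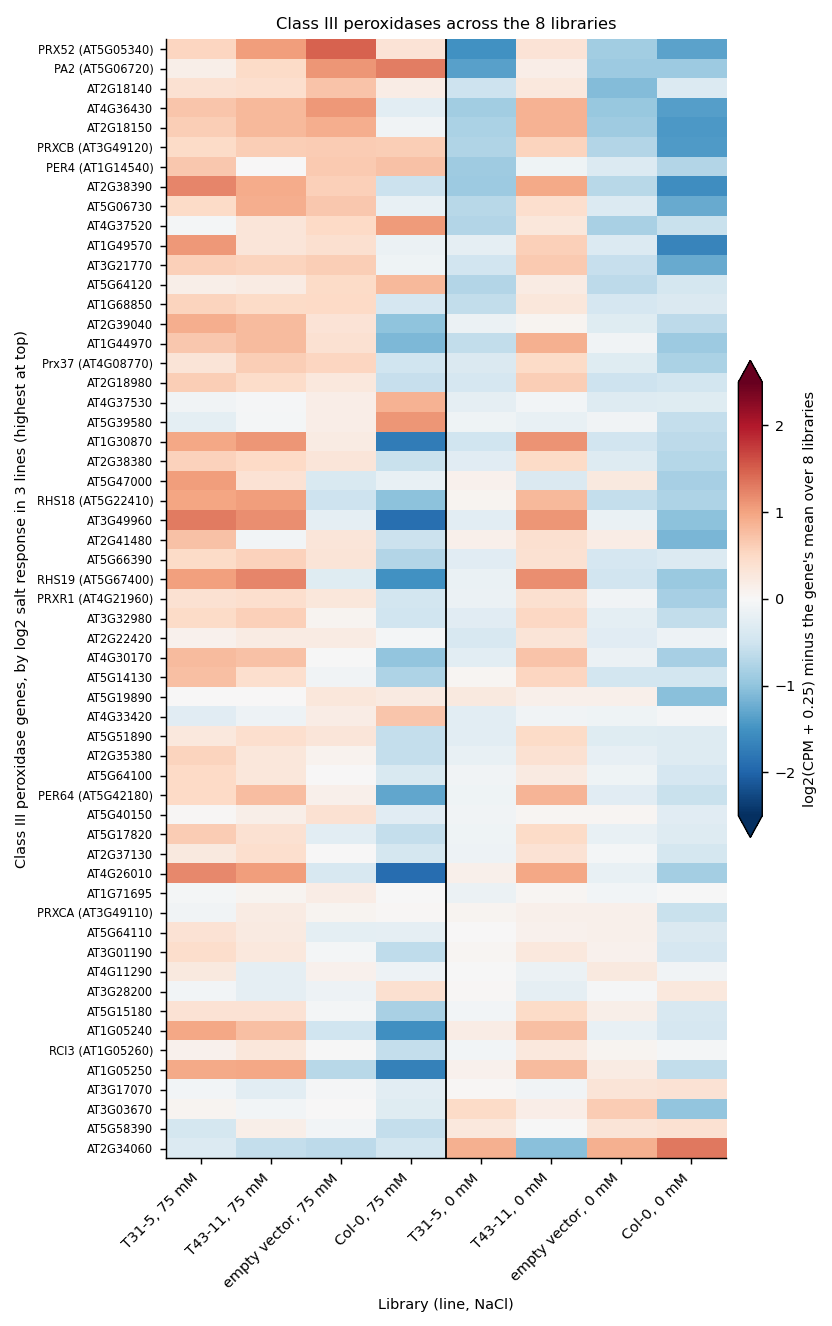
Levels of the 57 class III peroxidase genes that passed the filter on low counts, in the 8 libraries. Each row is a gene, ordered by its log2 salt response in T31-5, the empty vector line and Col-0, and colour is log2(CPM + 0.25) minus the gene's mean over the 8 libraries; the T43-11 column at 0 mM has the colours of the salted columns, and the rows of AT3G49960 and AT4G26010 are darkest blue in Col-0 at 75 mM.

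The first comparison asks which members responded to salt. Genes reaching 0.468 CPM (10 counts in the median library) in at least 2 libraries were tested, which kept 20585 genes and 57 of the 60 members. The 3 members that did not pass this filter, AT1G14550, AT5G19880 and AT5G58400, averaged 0.180, 0.277 and 0.178 CPM. Because the 2 libraries of T43-11 were nearly equal, the response was fitted in T31-5, the empty vector line and Col-0 with the line as a block. In these 3 lines 15 of 57 members rose with salt and 2 fell at an edgeR adjusted p under 0.05, while 14.4% of all tested genes rose and 15.4% fell. The share of members that responded in either direction, 29.8%, equalled that of all tested genes, 29.8%. The median log2 fold change was 0.40 for the 57 members and 0.01 for all tested genes. In 15 members the lowest of the 3 salted libraries lay above the highest of the 3 unsalted ones, beside 23.8% of all tested genes, and in 3 the order was reversed without overlap, beside 20.5%. With T43-11 included, edgeR called 0 members and 0 genes in either direction; at an unadjusted p under 0.05 it gave 20 members higher and 3 lower, beside 15.2% and 13.9% of all tested genes, and DESeq2 called 10 members higher and 1 lower, beside 3.7% and 4.79%. Without Col-0 27 members rose, beside 3898 of the 20585 tested genes. Without the empty vector line 10 rose and 1 fell, beside 828 and 1228 of the tested genes.

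The 4 leaf markers, all of which fell, summed to 23207 CPM in T31-5, 23139 in the empty vector line and 24305 in Col-0 at 75 mM, against 35140, 34398 and 40155 CPM in those lines at 0 mM. The 4 root markers, of which 2 rose and 1 fell, summed to 2222 CPM in T31-5, 1903 in the empty vector line and 1552 in Col-0 at 75 mM, against 1196, 1266 and 1286 CPM in those lines at 0 mM. Nearly all of this sum was PYK10, with 2216 CPM in T31-5, 1895.5 in the empty vector line and 1549 in Col-0 at 75 mM. SKOR fell with salt, and TIP2;3 did not pass. In whole plants fewer cells of a type and less RNA per cell cannot be told apart, and the part of the organs' shares in the members' responses was not tested.

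**Figure D2:**
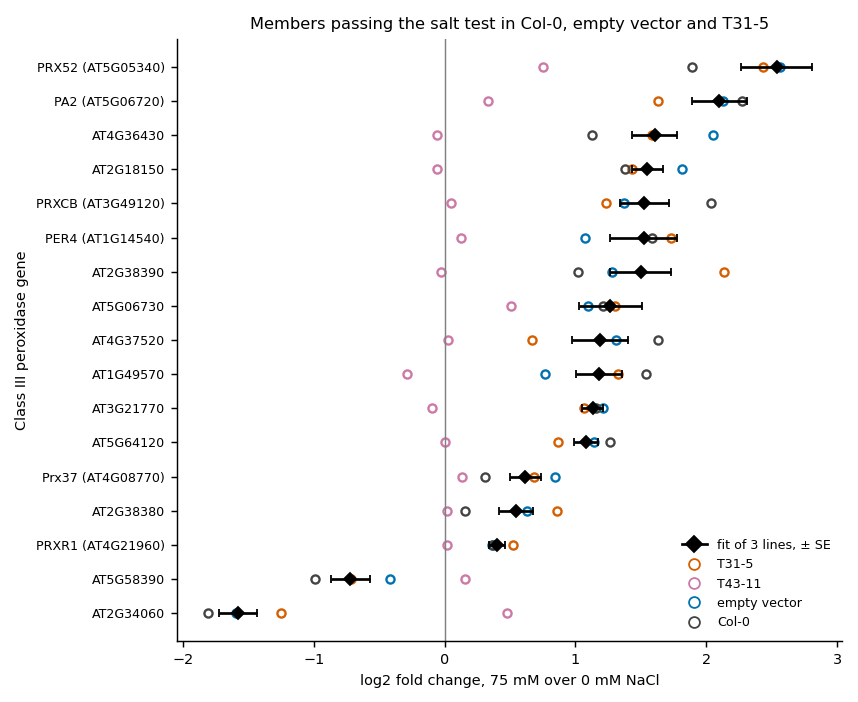
Log2 fold change at 75 mM over 0 mM NaCl for the 17 members that passed the salt test. Black diamonds are the fit of T31-5, the empty vector line and Col-0 with bars of 1 SE, and open circles are the log2 ratios of the single lines; the circles of T43-11 lie near 0 for most members, and the highest diamonds are those of PRX52 (AT5G05340) at 2.54 and PA2 (AT5G06720) at 2.1.

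Among the members with defence and oxidative burst roles, 4 of 7 tested rose with salt and none fell, beside 14.4% and 15.4% of all tested genes. PRXCB, also listed as PRX34, is a main source of the apoplastic oxidative burst with its neighbour PRXCA, also listed as PRX33. PRXCB had 213 CPM in T31-5, 240.0 in the empty vector line and 236 in Col-0 at 75 mM, against 90.6, 92.9 and 57.4 CPM in those lines at 0 mM. The lowest salted value exceeded the highest unsalted value in these lines, and the log2 fold change was 1.53 ± 0.18 (SE, edgeR adjusted p = 0.00661). PRXCA, which lies 1 gene away on chromosome 3, had 17.5 CPM in T31-5, 19.6 in the empty vector line and 19.1 in Col-0 at 75 mM, against 19.7, 20.5 and 12.6 CPM in those lines at 0 mM. Its values overlapped between the salt levels, with a log2 fold change of 0.09 ± 0.17 (SE, edgeR adjusted p = 0.734). The third close copy, AT3G32980, had 303 CPM in T31-5, 229.7 in the empty vector line and 154 in Col-0 at 75 mM, against 180.2, 183 and 142 CPM in those lines at 0 mM. It did not pass, with a log2 fold change of 0.38 ± 0.12 (SE, edgeR adjusted p = 0.0611). In T43-11, PRXCB had 234 CPM at 75 mM and 226 CPM at 0 mM, close to the salted libraries of the other lines.

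PA2 and PER4, defence members at a low level, rose as well. PA2 (AT5G06720), also listed as PRX53, had 3.14 CPM in T31-5, 6.4 in the empty vector line and 7.19 in Col-0 at 75 mM, against 0.953, 1.39 and 1.39 CPM in those lines at 0 mM. It passed with a log2 fold change of 2.1 ± 0.21 (SE, edgeR adjusted p = 0.00129), and its neighbour AT5G06730, which is 80.8% identical in coding sequence, with 1.27 ± 0.24 (SE, edgeR adjusted p = 0.0107). AT5G06730 no longer passed without the empty vector line (adjusted p = 0.086) or without T31-5 (adjusted p = 0.067). PER4 (AT1G14540), which is induced by bacterial flagellin in Arabidopsis, had 2.73 CPM in T31-5, 2.68 in the empty vector line and 2.86 in Col-0 at 75 mM, against 0.762, 1.22 and 0.873 CPM in those lines at 0 mM, and a log2 fold change of 1.52 ± 0.26 (SE, edgeR adjusted p = 0.00712). PRX71 (AT5G64120) had 96.4 CPM in T31-5, 122 in the empty vector line and 154 in Col-0 at 75 mM, against 52.8, 55.1 and 64.1 CPM in those lines at 0 mM. Its salted and unsalted values in these lines did not overlap, and its log2 fold change was 1.08 ± 0.09 (SE, edgeR adjusted p = 0.000892). AT2G37130 had 100.5 CPM in T31-5, 85.8 in the empty vector line and 62.9 in Col-0 at 75 mM, against 78.2, 82.0 and 62.8 CPM in those lines at 0 mM, and did not pass.

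The highest ratio belonged to PRX52 (AT5G05340), a peroxidase of the lignin of stem fibres. It had 2.19 CPM in T31-5, 4.43 in the empty vector line and 1.86 in Col-0 at 75 mM, against 0.334, 0.666 and 0.411 CPM in those lines at 0 mM. Its levels were low, and all 3 salted values lay above all 3 unsalted ones, with a log2 fold change of 2.54 ± 0.27 (SE, edgeR adjusted p = 0.00159). PRX52 and PRX71 were the 2 of 8 tested lignification members that rose with salt, and none of the 8 fell, beside 14.4% and 15.4% of all tested genes. PRX71 is on the defence list too and is 1 of the 4 counted there. The other 6 in that list did not pass. Of these, PRX72 (AT5G66390) had 18.7 CPM in T31-5, 16.7 in the empty vector line and 7.89 in Col-0 at 75 mM, against 10.9, 9.89 and 10.4 CPM in those lines at 0 mM, and AT5G51890 had 23.3 CPM in T31-5, 23.7 in the empty vector line and 12.7 in Col-0 at 75 mM, against 16.1, 15.5 and 15.4 CPM in those lines at 0 mM. In both genes Col-0 was lower at 75 mM than at 0 mM while T31-5 and the empty vector line were higher. Levels of AT2G22420 stayed between 5.53 and 9.23 CPM in the 8 libraries, and those of AT2G41480, also listed as PRX25, between 1.9 and 7.6 CPM.

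Close relatives AT4G36430 and AT2G18150 gave the strongest rises among members of at least 5 CPM. They lie on chromosomes 4 and 2 and are 80.1% identical in coding sequence, without a shared stretch of 50 bases. AT4G36430, which RefSeq annotates with the response to other organisms, had 30.3 CPM in T31-5, 39.6 in the empty vector line and 15.5 in Col-0 at 75 mM, against 10, 9.5 and 7.03 CPM in those lines at 0 mM. AT2G18150, annotated with the response to nematodes, had 17.7 CPM in T31-5, 21.7 in the empty vector line and 10.7 in Col-0 at 75 mM, against 6.48, 6.11 and 4.06 CPM in those lines at 0 mM. In both genes each line was higher at 75 mM, and the unsalted values of the 3 lines lay below every salted one. The log2 fold changes were 1.61 ± 0.17 (SE, edgeR adjusted p = 0.0025) for AT4G36430 and 1.55 ± 0.12 (SE, edgeR adjusted p = 0.000666) for AT2G18150. AT2G18140, the neighbour of AT2G18150 with the same 84 bases around the distal histidine, averaged 0.571 CPM and did not pass.

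Both members of the tandem pair AT2G38380 and AT2G38390 are annotated in RefSeq with the response to salt stress. AT4G37530, which did not pass the salt test, carries the same annotation. AT2G38390 had 75.4 CPM in T31-5, 48.8 in the empty vector line and 22.3 in Col-0 at 75 mM, against 17.1, 20 and 10.9 CPM in those lines at 0 mM. It rose in each of the 3 lines, with a log2 fold change of 1.5 ± 0.23 (SE, edgeR adjusted p = 0.0133), and did not pass without the empty vector line (adjusted p = 0.078). AT2G38380 had 112 CPM in T31-5, 92.2 in the empty vector line and 50.7 in Col-0 at 75 mM, against 61.7, 59.6 and 45.5 CPM in those lines at 0 mM. Its Col-0 value at 75 mM lay below the unsalted values of the other lines, and its log2 fold change was 0.54 ± 0.13 (SE, edgeR adjusted p = 0.0307). It did not pass without the empty vector line (adjusted p = 0.178) or without T31-5 (adjusted p = 0.093).

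The pair AT4G37520 and AT4G37530 on chromosome 4 behaved otherwise. AT4G37520, the second most abundant member, had 245 CPM in T31-5, 357 in the empty vector line and 533 in Col-0 at 75 mM, against 154, 144 and 172 CPM in those lines at 0 mM. The rise was steepest in Col-0, with a log2 ratio of 1.63, while T31-5 had 0.67 and the empty vector line 1.31. The log2 fold change over the 3 lines was 1.19 ± 0.21 (SE, edgeR adjusted p = 0.0213), which did not pass without Col-0 (adjusted p = 0.067) or without the empty vector line (adjusted p = 0.14). AT4G37530 had 47.3 CPM in T31-5, 56.6 in the empty vector line and 92.0 in Col-0 at 75 mM, against 43.3, 40.4 and 40.6 CPM in those lines at 0 mM, did not pass, and was highest in salted Col-0 as well. Because these copies share 8.82% of their stretches of 50 bases, reads could move between them, and their part in the result was not tested.

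**Figure D3:**
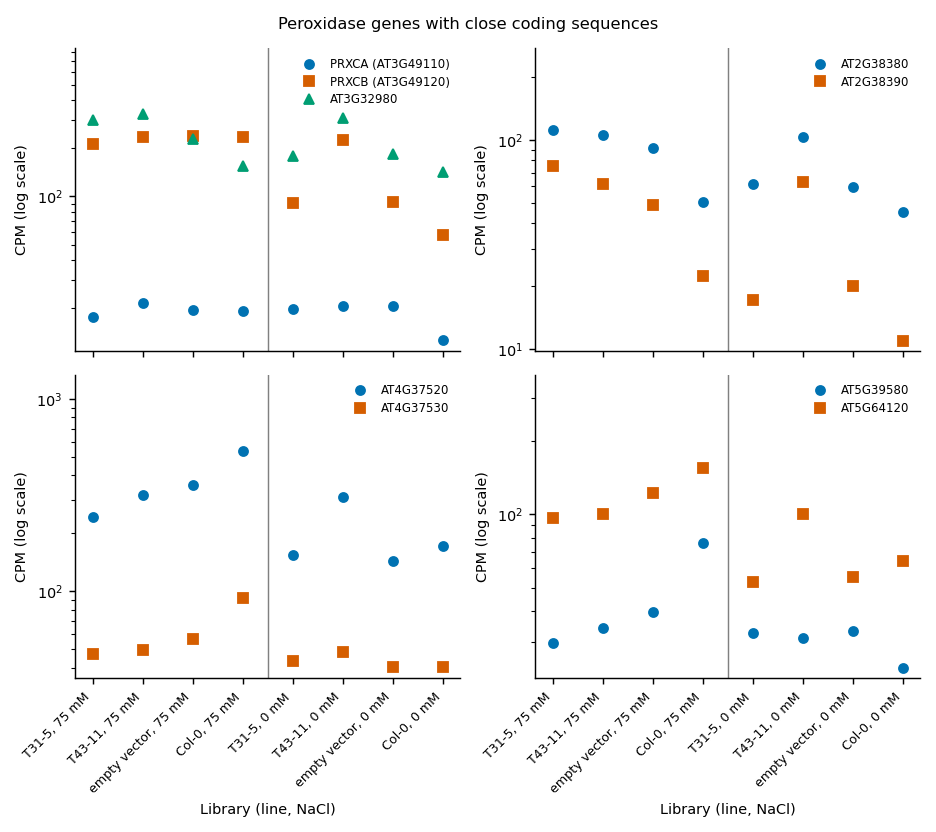
CPM on log axes of 4 sets of related peroxidase genes in the 8 libraries, salted libraries left and unsalted ones right of the line. PRXCB (squares, upper left) lies at 213 to 240 CPM in the 4 salted libraries and PRXCA (circles) at 17.5 to 21.6 CPM, and AT4G37520 is highest in Col-0 at 75 mM with 533 CPM; AT5G39580 and AT5G64120 (lower right) were set together as members highest in salted Col-0.

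Among the remaining rising members, PRXR1 is the most abundant of the family. It had 946 CPM in T31-5, 882 in the empty vector line and 530.0 in Col-0 at 75 mM, against 657, 688 and 411 CPM in those lines at 0 mM. Its response was small beside its differences between lines, since salted Col-0 was below the unsalted values of the other lines, and the log2 fold change was 0.40 ± 0.06 (SE, edgeR adjusted p = 0.00468). Prx37 (AT4G08770), whose overexpression is known to dwarf the plant, had 18.6 CPM in T31-5, 21.6 in the empty vector line and 10.5 in Col-0 at 75 mM, against 11.5, 12 and 8.47 CPM in those lines at 0 mM. Its log2 fold change of 0.62 ± 0.12 (SE, edgeR adjusted p = 0.0107) did not pass without the empty vector line (adjusted p = 0.104) or without T31-5 (adjusted p = 0.062). AT3G21770 had 33.1 CPM in T31-5, 33.8 in the empty vector line and 20.3 in Col-0 at 75 mM, against 15.8, 14.6 and 9.04 CPM in those lines at 0 mM. The response of AT3G21770 was nearly equal in the 3 lines, with log2 ratios of 1.06, 1.21 and 1.16, and the fitted log2 fold change was 1.13 ± 0.08 (SE, edgeR adjusted p = 0.000532). AT1G49570 had 17.3 CPM in T31-5, 10.7 in the empty vector line and 7.27 in Col-0 at 75 mM, against 6.86, 6.28 and 2.41 CPM in those lines at 0 mM, so that salted Col-0 was close to the unsalted values of the other lines. Its log2 fold change was 1.18 ± 0.17 (SE, edgeR adjusted p = 0.00485).

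Only AT2G34060 and AT5G58390 fell with salt among the 57 tested members. AT2G34060 had 4.13 CPM in T31-5, 3.25 in the empty vector line and 3.79 in Col-0 at 75 mM, against 9.96, 10 and 13.6 CPM in those lines at 0 mM. Its salted values were less than the unsalted ones in all 3 lines without overlap, with a log2 fold change of -1.58 ± 0.15 (SE, edgeR adjusted p = 0.00104). AT5G58390 had 4.59 CPM in T31-5, 5.97 in the empty vector line and 4.1 in Col-0 at 75 mM, against 7.58, 8.0 and 8.27 CPM in those lines at 0 mM, a log2 fold change of -0.72 ± 0.15 (SE, edgeR adjusted p = 0.0157). Leaving out the empty vector line or T31-5 took AT5G58390 over the threshold (adjusted p = 0.056 and 0.077).

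RCI3 (AT1G05260), a gene induced by cold and drying that is annotated with the response to hyperosmotic salinity, did not pass the salt test. RCI3 had 18.3 CPM in T31-5, 16.8 in the empty vector line and 11.2 in Col-0 at 75 mM, against 16.1, 17.8 and 16.5 CPM in those lines at 0 mM. The log2 ratio was 0.18 in T31-5, -0.08 in the empty vector line and -0.55 in Col-0, so the lines did not move together. Some other members varied little. AT1G71695 stayed between 66.4 and 83.8 CPM in the 8 libraries, AT5G40150 between 4.87 and 7.81 CPM, and AT4G11290 between 9.15 and 12.8 CPM.

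Single lines, each with 1 library per salt level and no test, differed in which members moved. There were 42 members that averaged 5 CPM or more. Of these, 12 had a level 2-fold or more higher at 75 mM in T31-5, beside 2.45% of all genes of that level, and 1 was lower, beside 1.72%. In the empty vector line 7 were higher, beside 2.77%, and 1 was lower, beside 1.8%. In Col-0 10 were higher, beside 3.72%, and 5 were lower, beside 2.91%. In T43-11 0 were higher and 0 lower, and the same held for all 14797 genes of that level. Of the 5 lower members in Col-0, 4 were root hair peroxidases, AT1G05240, AT1G05250, AT1G30870 and AT4G26010, and the fifth was AT2G34060. AT1G05240 and AT1G05250 have identical coding sequences and may not be separate observations, since it is not known how reads matching both were counted. Scaled by total counts without TMM, 3 of the 5 stayed past 2-fold, while AT1G05250 was just short of it and AT4G26010 had a log2 ratio of -0.96.

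The next comparison asks whether T43-11 responded to salt as the other 3 lines did. The near equality of its 2 libraries was known first, so a gene that responded in the other lines had to differ here, and with 1 library per salt level in T43-11 the spread came from the other 3 lines alone. The counts and values are therefore a description of that near equality and no separate test of the members. At an edgeR adjusted p under 0.05, 1 member was in the higher direction and 3 in the lower direction, beside 1.33% and 1.1% of all tested genes. In T43-11 AT2G18150 had 20.3 CPM at 75 mM and 21.2 CPM at 0 mM, and its log2 response minus that of the other lines was -1.63. In T43-11 AT3G21770 had 32.5 CPM at 75 mM and 34.8 CPM at 0 mM, a difference of -1.25. In T43-11 AT5G64120 had 100.4 CPM at 75 mM and 100.4 CPM at 0 mM, a difference of -1.09. These 3 were members that rose in the other lines. The 1 higher member was AT2G34060, the member with the largest fall in the other lines, which had 3.41 CPM at 75 mM and 2.42 CPM at 0 mM for T43-11, a difference of 2.06. In each of these 4 genes the unsalted T43-11 library lay beyond the unsalted values of the other lines on the side of their salted values. Members and all tested genes alike had the most calls without Col-0 and the fewest without the empty vector line, where no member passed.

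At 0 mM the members of T43-11 stood apart from Col-0 in the same way. Of the same 42 members, 19 were 2-fold or more higher in T43-11 than in Col-0 at 0 mM, beside 4.95% of all genes of that level, and 1 was lower, beside 3.59%. The corresponding counts were 2 higher in T31-5, beside 1.02%, and 1 higher in the empty vector line, beside 1.09%, with 0 lower in either, beside 0.216% in each. AT1G49570 was the member higher in both, with log2 ratios of 1.47 and 1.34. The median log2 ratio over Col-0 at 0 mM for the tested members was 0.91 in T43-11, 0.34 in T31-5 and 0.39 in the empty vector line, and the median of all tested genes lay at 0.05, -0.01 and -0.01.

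The third comparison asks how the 3 VP16-expressing lines differed from Col-0 under salt. At 75 mM 16 of 57 members were higher and 3 lower in the 3 lines than in Col-0 at an edgeR adjusted p under 0.05, beside 5.43% and 5.65% of all tested genes. The median log2 fold change was 0.88 for the members and 0.01 for all tested genes. In 40 members all 3 lines lay above Col-0, beside 37.5% of all tested genes, and in 8 all 3 lay below, beside 36% of them. Col-0 entered with 1 library, the shallowest, so the spread came from the 3 transgenic lines and any peculiarity of that library is part of the difference. The number of calls changed with the lines kept, for members and for all tested genes alike. It was lowest without T43-11 and highest without the empty vector line. The fit without the empty vector line sets T31-5 and T43-11 against Col-0. It is the same fit as that of the 3F-VP16 comparison below without the empty vector line. This comparison shares its salted libraries with the salt test and with the comparison of the 3F-VP16 lines, so its calls are not independent of theirs.

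**Figure D4:**
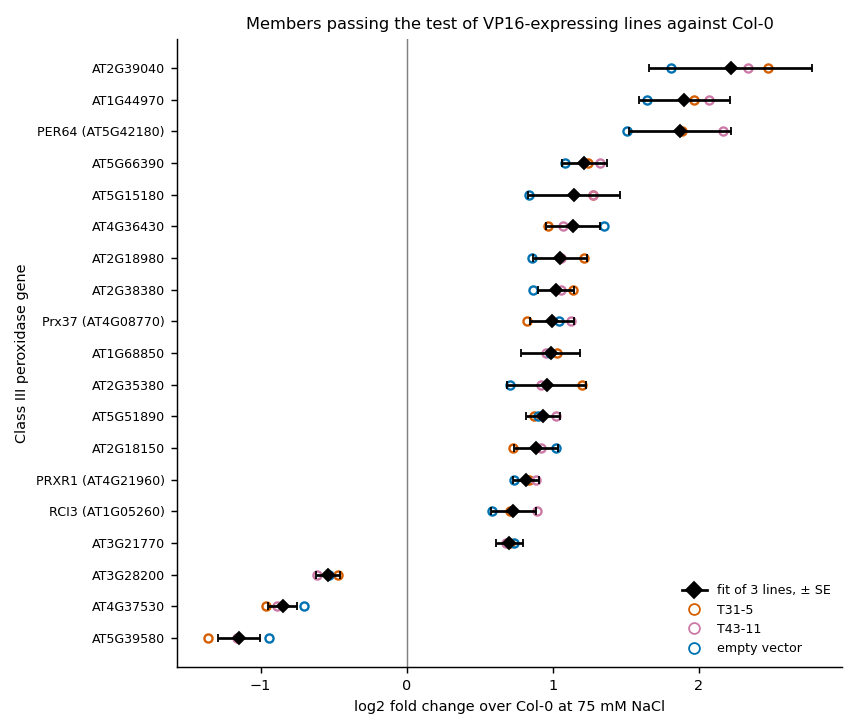
Log2 fold change over Col-0 at 75 mM NaCl for the 19 members that passed the test of the VP16-expressing lines. Black diamonds are the fit with bars of 1 SE and open circles are T31-5, T43-11 and the empty vector line; the Casparian strip members AT1G44970 and PER64 (AT5G42180) lie at 1.90 and 1.87, and AT5G39580 lies lowest at -1.15.

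Casparian strip peroxidases were among the higher members, with 4 of 5 passing, beside 5.43% of all tested genes, and the fifth, AT4G11290, not passing. PER64 (AT5G42180), which polymerises the lignin of the strip, had 10.3 CPM in T31-5, 12.5 in T43-11 and 7.9 in the empty vector line at 75 mM, against 2.78 CPM in Col-0. Its lowest value in the transgenic lines was more than its Col-0 value, and the log2 fold change was 1.87 ± 0.35 (SE, edgeR adjusted p = 0.0221). AT1G44970 had 5.74 CPM in T31-5, 6.19 in T43-11 and 4.61 in the empty vector line at 75 mM, against 1.47 CPM in Col-0, a log2 fold change of 1.90 ± 0.31 (SE, edgeR adjusted p = 0.00685). PRX72 (AT5G66390) had 18.7 CPM in T31-5, 19.8 in T43-11 and 16.7 in the empty vector line at 75 mM, against 7.89 CPM in Col-0, a log2 fold change of 1.22 ± 0.15 (SE, edgeR adjusted p = 0.00316). RCI3 had 18.3 CPM in T31-5, 20.8 in T43-11 and 16.8 in the empty vector line at 75 mM, against 11.2 CPM in Col-0, a log2 fold change of 0.73 ± 0.15 (SE, edgeR adjusted p = 0.0176). At 0 mM the 5 members summed to 46.4 CPM in T31-5, 67.2 in T43-11 and 49.5 in the empty vector line, against 43.5 CPM in Col-0, and at 75 mM to 65.8, 68.3 and 57.5 CPM, against 33.1 CPM in Col-0.

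Of the 6 endodermis markers 4 were tested, and 1, CASP1, passed. The 6 genes, which are not peroxidases, summed to 23.5 CPM in T31-5, 26.0 in T43-11 and 16.5 in the empty vector line at 75 mM, against 7.35 CPM in Col-0, and to 13.9, 25.9 and 16 CPM at 0 mM, against 13.8 CPM in Col-0. CASP1 is a scaffold protein of the Casparian strip, and none of the 6 was without reads in all libraries. The part of the markers in the result was not tested.

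Among members outside the strip that passed, AT2G39040 had the largest ratio, at a low level, with 2.15 CPM in T31-5, 1.96 in T43-11 and 1.36 in the empty vector line at 75 mM, against 0.387 CPM in Col-0 and a log2 fold change of 2.22 ± 0.56 (SE, edgeR adjusted p = 0.0343). AT2G39040 is one of the 2 members without the Phe-His-Asp-Cys motif. Among members of at least 5 CPM, AT2G18980 had 16.9 CPM in T31-5, 15.1 in T43-11 and 13.2 in the empty vector line at 75 mM, against 7.27 CPM in Col-0, a log2 fold change of 1.05 ± 0.18 (SE, edgeR adjusted p = 0.00924). The salt-annotated AT2G38380 had 112 CPM in T31-5, 106 in T43-11 and 92.2 in the empty vector line at 75 mM, against 50.7 CPM in Col-0, a log2 fold change of 1.02 ± 0.12 (SE, edgeR adjusted p = 0.00395). Prx37 had 18.6 CPM in T31-5, 22.9 in T43-11 and 21.6 in the empty vector line at 75 mM, against 10.5 CPM in Col-0, a log2 fold change of 1.0 ± 0.15 (SE, edgeR adjusted p = 0.00604). AT4G36430 had 30.3 CPM in T31-5, 32.5 in T43-11 and 39.6 in the empty vector line at 75 mM, against 15.5 CPM in Col-0, a log2 fold change of 1.14 ± 0.18 (SE, edgeR adjusted p = 0.0152). PRXR1 had 946 CPM in T31-5, 978 in T43-11 and 882 in the empty vector line at 75 mM, against 530.0 CPM in Col-0, with little spread among the 3 lines and a log2 fold change of 0.82 ± 0.09 (SE, edgeR adjusted p = 0.0016). The other higher members were AT5G15180, AT1G68850, AT2G35380, AT5G51890, AT2G18150 and AT3G21770, with log2 fold changes of 0.70 to 1.15. Several calls were lost when 1 line was left out. Without T43-11 the edgeR adjusted p was 0.0997 for AT2G39040, 0.0705 for AT4G36430, 0.125 for AT5G15180, 0.0549 for AT1G68850 and 0.124 for AT2G35380. Without T31-5 it was 0.0538 for AT2G39040, 0.0756 for AT5G15180 and 0.0717 for AT2G35380. AT1G68850, AT2G39040, AT5G15180 and AT2G35380 did not pass in DESeq2 either, with adjusted p-values of 0.071 to 0.143.

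The 3 lower members had their highest level in salted Col-0. AT5G39580 is the other member without an exact Phe-His-Asp-Cys match. It had 29.6 CPM in T31-5, 34.0 in T43-11 and 39.6 in the empty vector line at 75 mM, against 76.1 CPM in Col-0. Its unsalted levels ran from 23.4 CPM in Col-0 to 33.1 CPM in the empty vector line. AT5G39580 was lower by 1.15 on the log2 scale in the 3 lines than in Col-0 at 75 mM (SE 0.15), and the call was lost without T43-11. AT4G37530 had 47.3 CPM in T31-5, 49.7 in T43-11 and 56.6 in the empty vector line at 75 mM, against 92.0 CPM in Col-0, a log2 fold change of -0.85 ± 0.10 (SE, edgeR adjusted p = 0.00287). AT3G28200 had 65.8 CPM in T31-5, 59.6 in T43-11 and 63.2 in the empty vector line at 75 mM, against 91.2 CPM in Col-0, a log2 fold change of -0.54 ± 0.08 (SE, edgeR adjusted p = 0.00506). AT4G33420, a lignification member that did not pass in edgeR, had 48.8 CPM in T31-5, 54.8 in T43-11 and 67.9 in the empty vector line at 75 mM, against 96.7 CPM in Col-0.

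The fourth comparison is that of the 3F-VP16 lines, T31-5 and T43-11, with the control lines, the empty vector line and Col-0, at 75 mM. edgeR called 0 of 57 members and 0 of all 20585 tested genes. At an unadjusted p under 0.05 it gave 18 members higher and 6 lower, beside 3.56% and 4.01% of all tested genes, and DESeq2 called 7 members higher and 0 lower, beside 0.141% and 0.204%. In 27 members both 3F-VP16 lines lay above both control lines, beside 21.2% of all tested genes, and in 8 both lay below, beside 22%. The median log2 fold change was 0.43 for the members and 0.00 for all tested genes. The outcome turned on the control lines, for members and for all tested genes alike. Calls appeared without Col-0 and were more numerous without the empty vector line, while without T31-5 or without T43-11 edgeR called 0 members and 0 genes. Each fit without a control line sets T31-5 and T43-11 against 1 library, so its spread comes from the 3F-VP16 lines alone and its p-values say nothing of the spread between control lines.

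Root hair peroxidases had the 6 largest log2 fold changes of the members in this comparison. The 7 members of that list, known for transcripts enriched in root hairs, had log2 fold changes of 1.44 to 2.09, none of which passed (edgeR adjusted p = 0.647 for each). AT4G26010 had 19.2 CPM in T31-5, 17.1 in T43-11, 6.18 in the empty vector line and 2.01 in Col-0 at 75 mM, against 9.05, 16.4, 7.16 and 4.42 CPM in those lines at 0 mM. RHS19 (AT5G67400) had 11.5 CPM in T31-5, 13.1 in T43-11, 4.39 in the empty vector line and 1.78 in Col-0 at 75 mM, against 4.86, 12.6, 3.89 and 2.77 CPM in those lines at 0 mM. AT3G49960, which is 78.8% identical to RHS19 in coding sequence, had 11.8 CPM in T31-5, 10.7 in T43-11, 3.95 in the empty vector line and 1.08 in Col-0 at 75 mM, against 3.81, 10.3, 4.11 and 2.16 CPM in those lines at 0 mM. In these 3 genes both 3F-VP16 lines were above both control lines at 75 mM, and salted Col-0 was the lowest of the 8 libraries. AT1G30870 had 13.6 CPM in T31-5 and 15.0 in T43-11 at 75 mM, against 7.94 CPM in the empty vector line and 1.86 in Col-0. RHS18 (AT5G22410) had 2.31 CPM in T31-5 and 2.41 in T43-11 at 75 mM, against 0.658 CPM in the empty vector line and 0.387 in Col-0. AT1G05240 and AT1G05250, summed because their coding sequences are identical, had 25.3 CPM in T31-5 and 23.8 in T43-11 at 75 mM, against 8.33 CPM in the empty vector line and 3.87 in Col-0. The sources used here do not say how reads matching both copies were counted, and if they were counted at each copy this sum, and the list's sum, hold them more than once.

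For AT4G26010 the log2 fold change was 2.05 ± 0.41 (SE, edgeR adjusted p = 0.647), for RHS19 1.92 ± 0.35 (SE, edgeR adjusted p = 0.647) and for RHS18 2.09 ± 0.35 (SE, edgeR adjusted p = 0.647). DESeq2 called AT1G05240, AT1G05250, AT3G49960, AT4G26010 and RHS19, together with AT4G30170 and AT5G17820, which are outside the root hair list. Against the wild type alone the 3 VP16-expressing lines had log2 fold changes of 2.18 to 3.02 in the 7 root hair peroxidases at 75 mM. None of these root hair members passed in edgeR. None of the 7 passed the salt test of 3 lines, and their summed level moved in opposite directions between lines. It was 83.6 CPM at 75 mM and 37.9 at 0 mM in T31-5, 82.0 and 78.8 in T43-11, 31.4 and 33.7 in the empty vector line, and 11.0 and 23 in Col-0.

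**Figure D5:**
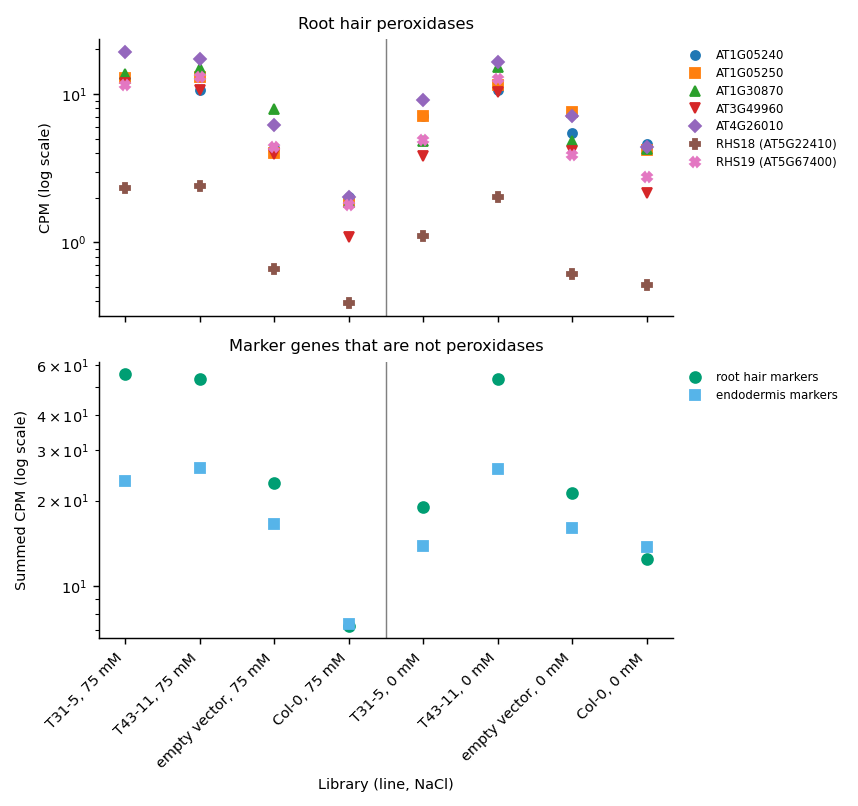
Upper panel, CPM on a log axis of the 7 root hair peroxidases in the 8 libraries; lower panel, summed CPM on a log axis of 11 root hair markers and 6 endodermis markers that are not peroxidases. AT4G26010 reaches 19.2 CPM in T31-5 and 17.1 CPM in T43-11 at 75 mM and 2.01 CPM in Col-0, and the summed root hair markers have the same order of libraries at 75 mM.

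None of 11 root hair markers that are not peroxidases passed in the comparison of the 3F-VP16 lines. These markers, among them the expansin gene EXPA7 and the wall protein gene LRX1, summed to 55.5 CPM in T31-5 and 53.5 in T43-11 at 75 mM, against 23.1 CPM in the empty vector line and 7.27 in Col-0. At 0 mM they summed to 19.0 CPM in T31-5 and 53.5 in T43-11, against 21.3 CPM in the empty vector line and 12.5 in Col-0. All 11 were detected, and 1 of 11, RHD6, rose in the salt test. A general root marker list of 4 genes summed to 2222 CPM in T31-5 and 2042 in T43-11 at 75 mM, against 1903 CPM in the empty vector line and 1552 in Col-0. Nearly all of this sum was PYK10, with 2216, 2036, 1895.5 and 1549 CPM in those libraries. The spread of the sum, smaller than that of the root hair markers, is therefore that of PYK10. The 4 leaf markers summed to 23207 CPM in T31-5 and 24150 in T43-11 at 75 mM, against 23139 CPM in the empty vector line and 24305 in Col-0. The part of root hairs in the levels of these peroxidases was not tested.

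In other members, too, both 3F-VP16 lines exceeded both control lines under salt. Among them AT5G47000, with a mean of 0.527 CPM, had a log2 fold change of 1.51, above that of the root hair member AT1G30870. At 75 mM it had only 30 reads in T31-5, 15 in T43-11, 7 in the empty vector line and 5 in Col-0, so this ratio is uncertain. It did not pass, and the rest had smaller ratios than the root hair peroxidases. AT4G30170 had 75.8 CPM in T31-5 and 72.8 in T43-11 at 75 mM, against 43.2 CPM in the empty vector line and 22.0 in Col-0. AT5G17820 had 39.6 CPM in T31-5 and 32.9 in T43-11 at 75 mM, against 21.1 CPM in the empty vector line and 16.6 in Col-0. The log2 fold changes were 1.17 and 0.94, with unadjusted p-values of 0.00825 and 0.00093 that did not survive adjustment in edgeR (adjusted p = 0.647 for both). AT3G32980 had 303 CPM in T31-5 and 328 in T43-11 at 75 mM, against 229.7 CPM in the empty vector line and 154 in Col-0, with a log2 fold change of 0.72 ± 0.19 (SE, edgeR adjusted p = 0.647). The neighbours AT5G64100 and AT5G64110 had log2 fold changes of 0.57 and 0.54, and their neighbour PRX71 had -0.48. On the lower side, PA2 had 3.14 CPM in T31-5 and 4.05 in T43-11 at 75 mM, against 6.4 CPM in the empty vector line and 7.19 in Col-0, a log2 fold change of -0.91 ± 0.21 (SE, edgeR adjusted p = 0.647).

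Genes that work with peroxidases were counted from lists that were also chosen with earlier results known. NADPH oxidases make the superoxide from which hydrogen peroxide arises, and 4 of 8 tested genes rose with salt and none fell, beside 14.4% and 15.4% of all tested genes. RHD2, the oxidase of root hair growth, had log2 fold changes of 0.69 ± 0.14 with salt (SE, edgeR adjusted p = 0.0126) and 1.28 ± 0.23 in the VP16-expressing lines over Col-0 at 75 mM (adjusted p = 0.0114). RBOHD, the oxidase of the defence burst, did not pass the salt test, with a log2 fold change of 0.04. Of 18 monolignol synthesis genes, 7 rose with salt and 4 fell; CCR2 rose by a log2 value of 1.18 and ATCAD4 fell by 0.83. Laccases, which also polymerise lignin, gave 2 of 7 higher with salt and 3 of 7 higher in the VP16-expressing lines than in Col-0 at 75 mM, beside 5.43% of all tested genes, among them IRX12 with 0.99 and LAC11 with 1.28. Of 8 regulators of peroxidase and lignin genes, MYB15 rose with salt by 2.13, and MYB36, which drives Casparian strip formation, was higher in the VP16-expressing lines than in Col-0 at 75 mM by 1.23. UPB1, a root repressor of peroxidase genes, had a salt log2 fold change of -0.27 that did not pass. None of the genes in these lists passed in edgeR in the comparison of the 3F-VP16 lines with the control lines, as for all tested genes.

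Of the other 13 peroxidase genes of the family, 7 entered the tests, 2 had no reads at all, and the most abundant, AT4G08780, averaged 2.83 CPM. None of the 7 passed the salt test, and AT4G08780 was higher in the VP16-expressing lines than in Col-0 at 75 mM, with a log2 fold change of 1.24 ± 0.30 (SE, edgeR adjusted p = 0.0311). Summed over the 13 genes the level was 8.76 CPM in T31-5, 9.10 in T43-11, 7.50 in the empty vector line and 3.63 in Col-0 at 75 mM.

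The 250 bases upstream of the annotated gene start were searched on both strands for short motifs linked with stress, defence and lignin genes. The ABRE core ACGTG, bound by factors of abscisic acid signalling, was in 19 of 60 members (31.7%) and in 22.9% of 27438 promoters. The DRE core CCGAC was in 8 members (13.3%) and in 12% of promoters, and the W-box core TTGAC was in 25 members (41.7%) and in 44.9% of promoters. The G-box CACGTG, which contains an ABRE core, was in 1 member (1.67%) and in 6.49% of promoters, and the AC element ACCNACC of lignin genes was in 2 members (3.33%) and in 6.10%. Of the 15 members that rose with salt, 5 held the ABRE core, 3 the DRE core and 8 the W-box core, and of the 7 root hair peroxidases 5 held the ABRE core. A match is a string of letters and not a shown binding site.

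The windows of AT4G36430 and AT2G18150, which rose together, and of AT4G26010 and RHS19, which were high together in the 3F-VP16 lines, are shown from RefSeq TAIR10.1, 5′ to 3′ on the gene's strand. Capitals mark ABRE, DRE and W-box cores on either strand.

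AT4G36430, chr4:17206034-17206283, minus strand: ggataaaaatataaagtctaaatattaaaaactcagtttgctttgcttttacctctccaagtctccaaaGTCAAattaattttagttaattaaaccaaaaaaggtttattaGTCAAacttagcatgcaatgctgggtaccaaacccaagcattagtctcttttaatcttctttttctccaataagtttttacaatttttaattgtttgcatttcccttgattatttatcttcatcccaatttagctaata

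AT2G18150, chr2:7893710-7893959, minus strand: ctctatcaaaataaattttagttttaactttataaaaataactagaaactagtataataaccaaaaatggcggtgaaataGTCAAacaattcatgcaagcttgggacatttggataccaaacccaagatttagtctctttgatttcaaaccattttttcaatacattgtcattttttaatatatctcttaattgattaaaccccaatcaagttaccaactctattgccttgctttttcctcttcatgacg

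AT4G26010, chr4:13200164-13200413, plus strand: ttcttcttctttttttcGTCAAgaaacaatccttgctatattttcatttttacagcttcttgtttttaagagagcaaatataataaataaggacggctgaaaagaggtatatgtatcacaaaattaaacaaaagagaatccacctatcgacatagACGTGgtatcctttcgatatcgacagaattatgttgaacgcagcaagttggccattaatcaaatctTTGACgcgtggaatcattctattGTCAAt

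RHS19 (AT5G67400), chr5:26894528-26894777, plus strand: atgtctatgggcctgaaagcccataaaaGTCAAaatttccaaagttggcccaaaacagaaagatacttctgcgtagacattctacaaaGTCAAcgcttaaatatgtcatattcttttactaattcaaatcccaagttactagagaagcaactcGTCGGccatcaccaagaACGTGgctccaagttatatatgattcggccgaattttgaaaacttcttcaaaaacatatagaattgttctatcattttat

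The windows of AT4G36430 and AT2G18150 shared a run of 13 identical bases, while the median longest run over 1770 pairs of members was 9 bases and 9 pairs reached 13 or more. AT4G36430 held 2 W-box cores and AT2G18150 held 1, and neither held an ABRE or DRE core. AT4G26010 held 1 ABRE core and 3 W-box cores, and RHS19 held 1 ABRE core, 1 DRE core and 2 W-box cores. PRXCB held 2 W-box cores in its window, and its copy PRXCA, which did not pass the salt test, held 0. The W-box core was in 8 of the 15 members that rose with salt and in 16 of the 40 that did not pass. The part of the motif in these responses was not tested.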

How the data were processed

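Total RNA of whole plants was sequenced in 8 libraries. The authors deposited raw read counts per gene, and per the submitters' processing notes TopHat2 2.0.5 and HTSeq were used on TAIR10. The sources used here do not give the HTSeq version, annotation release, counting mode, strand setting or treatment of reads with several matches, so close or overlapping genes can share reads. Neither the 5 summary rows, 2.49 to 2.60% of reads, nor the 2 added rows entered library sizes or tests. Symbols, coordinates, coding lengths and sequences came from RefSeq TAIR10.1.

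The deposited counts were tested with the robust quasi-likelihood test of edgeR 4.0.16 (R 4.3.3), scaled by TMM factors. A gene was tested when 2 or more libraries reached 0.468 CPM, which kept 20585 genes, and p-values were adjusted over all of them by the Benjamini-Hochberg method at a threshold of 0.05. The salt fit used 6 libraries of 3 lines with line as a block, because both salt levels come from the same line; the comparisons between lines used the 4 libraries at 75 mM. Standard errors are the size of the log2 fold change over the root of F. Ratios of single libraries used CPM with a prior count of 2, and a 2-fold limit on genes of at least 5 CPM. Alternatives were DESeq2 1.42.0, RLE size factors, other filters, other sets of lines and no block. The fits were tested on simulated data. Python 3.11.15 with Biopython 1.88 served the sequence steps.

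The members, gene lists, tests and lines in each fit were chosen with earlier results of these data known. Members named with all values were, of those of at least 5 CPM that passed a test, the 6 largest in each direction, then the 6 highest per kilobase and the members of the role lists; some members of lower level or outside this rule were named after their values were seen.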

Additional observations from a re-analysis of the deposited data

Results flagged for a closer look

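The salt response of 4 members differed between T43-11 and the other 3 lines in the edgeR fit. The log2 difference was -1.63 for AT2G18150, -1.25 for AT3G21770, -1.09 for AT5G64120 and 2.06 for AT2G34060. The 2 libraries of T43-11 were nearly equal over all genes, with a mean chi-square per gene of 1.42, so any gene that responded in the other lines had to differ here, against the direction of that response, and T43-11 has 1 library per salt level. None of the 4 passed without the empty vector line.

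In 2 root hair peroxidases the salt ratio was at least 2-fold and opposite in sign in T31-5 and in Col-0, each with 1 library per salt level. The log2 ratio in T31-5 minus that in Col-0 was 2.63 for AT1G30870 and 2.16 for AT4G26010, and this difference was not tested. Scaled by total counts without TMM, AT4G26010 in Col-0 had a log2 ratio of -0.96, short of 2-fold.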

How the results depend on the processing

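The members called in the salt test of 3 lines, the response of T43-11 or the test of the VP16-expressing lines, and the 7 root hair peroxidases in the comparison of the 3F-VP16 lines, kept their direction there under the alternatives run; direction was not followed for the other members. Leaving out 1 line gave 10 to 27 members higher and 1 to 2 lower in the salt test of 3 lines (15 and 2 in the full test). Over all tested genes these fits gave 828 to 3898 higher and 1228 to 4044 lower. With all 4 lines the ranges were 0 to 15 and 0 to 2 (0 and 0), beside 0 to 2970 and 0 to 3172 of all tested genes. The upper values are those without T43-11. For the response of T43-11 they were 0 to 1 higher and 0 to 13 lower (1 and 3), for the 3F-VP16 lines 0 to 31 and 0 to 7 (0 and 0), and for the VP16-expressing lines 11 to 31 and 2 to 7 (16 and 3). A fit without the replicate block, where a line's 2 salt levels are not paired, gave 12 members higher and 2 lower in 3 lines. Beside this stood 2500 and 2477 of all tested genes, and in all 4 lines it called 0 members and 0 genes. AT1G49570, AT2G38380, Prx37 and PRXR1 did not pass in the fit of 3 lines without the block. DESeq2 gave 10 higher and 1 lower with salt in all 4 lines, beside 762 and 985 of all tested genes. It gave 7 higher in the 3F-VP16 lines, beside 29 of all tested genes. For the response of T43-11 and the VP16-expressing lines it called more members lower than edgeR did, and fewer of all tested genes. Summing the empty vector line and T31-5 as 1 line left 12 higher and 1 lower with salt, beside 1215 and 1563 of all tested genes. For the response of T43-11 that sum left no member called and few of all tested genes. The stricter filter left no member higher in that response. Scaling by total counts alone left 3 members instead of 5 past a 2-fold fall in Col-0. The cause of these shifts was not tested, beyond the fewer lines in some fits. Over all tested genes, DESeq2 called 1817 higher and 2236 lower with salt in 3 lines, against 2970 and 3172 in edgeR. The design has 1 library per line and salt level, the 2 nearly equal pairs of libraries add little independent spread, and members near 3 reads per library, 6 of which averaged under 1 CPM, give no usable ratio.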
